A study of Mus musculus with 23 samples.

Results

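The transcripts described here are those of Pglyrp1 and of 9 genes that are typical of blood: the neutrophil genes Camp, Ngp, Lcn2, S100a8 and S100a9, the lysozyme gene Lyz2, the haemoglobin genes Hba-a1 and Hbb-b2, and Alas2. A probe set belongs to the group if its platform annotation names 1 of these 10 genes, alone or with others, which gave 17 of the 12488 probe sets on the array and 10 of the 8949 genes its annotation names. Of these, 13 carried 1 gene symbol and 4 carried several. The group was chosen by the signal of Pglyrp1, which was higher in the older mice. That age difference is therefore given as a description with no test, and the question asked of the data is whether Pglyrp1, from mouse to mouse, goes with the neutrophil genes or with the haemoglobin genes.

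The mice were males of the strain C57BL/6JNIA, 14 aged 15 months and 9 aged 2 months, and RNA of each whole hippocampus went to 1 Affymetrix array, 23 in all. Mice of both ages had learned the Morris water maze, in which a hidden platform is found from memory, so neither group is naive. They were killed by cervical dislocation, and the labels say nothing of whether blood was washed out of the vessels. The labels name each array as a separate mouse and give no batch. Numbers in the sample titles are all lower for the older mice than for the young ones, so an effect of that order, if the samples were handled in it, cannot be told apart from age. Of 8 genes that mark hippocampal neurons and had a probe set, 7 were above the signal filter described next, among them Neurod6, Wfs1 and Camk2a. Prox1, a marker of dentate granule cells, was below it.

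Signals are MAS5 values on a linear scale, and tests were made on log2(signal + 16), which understates the change of dim probe sets. The median signal of an array was 154.9 to 187.95, and any pair had r of 0.943 to 0.983 over all probe sets. Probe sets with a mean above a signal of 91.7, the 40th percentile, were tested, which left 7453. Of the 17 member probe sets 8 passed and 9 did not: both for Pglyrp1, 4 of 5 for haemoglobin, 2 of 6 for the neutrophil genes, 0 of 3 for lysozyme and not the one for Alas2 passed. Detection calls, which say whether a probe set is above background, were not used here. In 1 array, replicate 13 of the 15-month mice, the 25th percentile of the signals was 53.62, against 30.3 to 41.92 in all other arrays.

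Pglyrp1 encodes peptidoglycan recognition protein 1, a secreted protein that binds the cell wall of bacteria and is stored in the granules of neutrophils. Camp and Ngp are further granule proteins of neutrophils, Lcn2 encodes the iron-siderophore binding protein lipocalin 2, and S100a8 and S100a9 encode the subunits of calprotectin, an abundant protein of the neutrophil cytosol. In brain tissue Lcn2 can also be made by reactive astrocytes and endothelium. Lyz2 encodes the lysozyme of macrophages and granulocytes. Hba-a1 and Hbb-b2 encode globin chains of haemoglobin, and Alas2 encodes the erythroid enzyme that starts haem synthesis. Reticulocytes carry these red cell transcripts in circulating blood.

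The sequences before the start sites of Pglyrp1, a neutrophil gene and a globin gene of each chain are shown first, because the results turn on which of these genes Pglyrp1 resembles. They hold the 250 bases upstream of the start of each gene in RefSeq (GRCm38.p6), whose promoter table held 9 of the 10 genes and not Hbb-b2. Hbb-bs, an adult beta-globin gene named by the beta-globin probe sets with several symbols, stands in for the beta chain. Capitals mark matches on either strand to 4 short motifs. The letters AGATAA are a form of the motif of erythroid factors such as Gata1, and other forms were not searched. The letters GAGGAA are the core bound by PU.1 and other Ets factors, and CCACACCC is bound by factors such as Klf1. The letters AGAACA are part of the glucocorticoid receptor's element. A match on the opposite strand appears as TTCCTC or TGTTCT. No marked match overlaps another.
Pglyrp1, chr7:18884440-18884689, plus strand: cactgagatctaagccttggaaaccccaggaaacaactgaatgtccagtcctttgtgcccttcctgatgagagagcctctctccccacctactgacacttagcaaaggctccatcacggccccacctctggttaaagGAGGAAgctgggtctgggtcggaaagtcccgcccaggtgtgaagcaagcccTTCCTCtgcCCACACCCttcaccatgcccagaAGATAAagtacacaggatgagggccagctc
S100a8, chr3:90668821-90669070, plus strand: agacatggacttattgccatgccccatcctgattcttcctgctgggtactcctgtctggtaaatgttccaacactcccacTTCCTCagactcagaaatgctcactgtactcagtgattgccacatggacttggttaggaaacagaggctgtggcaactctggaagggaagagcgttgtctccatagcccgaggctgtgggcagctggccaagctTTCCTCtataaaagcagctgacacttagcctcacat
Hba-a1, chr11:32283422-32283671, plus strand: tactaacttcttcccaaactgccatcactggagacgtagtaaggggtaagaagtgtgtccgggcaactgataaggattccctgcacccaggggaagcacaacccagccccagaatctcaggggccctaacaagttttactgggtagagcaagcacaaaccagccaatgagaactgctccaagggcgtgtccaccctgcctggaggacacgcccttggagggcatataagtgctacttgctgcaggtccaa
Hbb-bs, chr7:103827929-103828178, minus strand: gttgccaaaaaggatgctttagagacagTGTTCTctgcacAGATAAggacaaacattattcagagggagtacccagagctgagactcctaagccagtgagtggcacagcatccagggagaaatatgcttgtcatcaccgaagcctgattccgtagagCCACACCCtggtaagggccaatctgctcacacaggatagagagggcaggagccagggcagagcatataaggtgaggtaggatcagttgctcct

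Counted back from the start site, the Pglyrp1 sequence held AGATAA at bases -30 to -25, CCACACCC at -53 to -46, and GAGGAA at -113 to -108 and, on the opposite strand, at -62 to -57. The S100a8 sequence held GAGGAA on the opposite strand at -170 to -165 and at -36 to -31, and none of the other motifs. The Hbb-bs sequence held AGATAA at -210 to -205, CCACACCC at -93 to -86 and AGAACA on the opposite strand at -222 to -217. None of the 4 motifs was in the Hba-a1 sequence, which says only that these exact letters are not in that window. That sequence does hold TGATAA, which was not among the letters searched. Over 32851 RefSeq promoters of the same length, 10.0% held AGATAA, 23.3% held GAGGAA, 3.2% held CCACACCC and 16.1% held AGAACA. The matches are descriptions of sequence and not evidence that a factor binds there.

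Pglyrp1 was chosen for its higher signal at 15 months, and its values show how far apart the ages lay. The first of its probe sets, that of highest mean and the one used for all correlations here, ran from 188.0 over a median of 272.8 to 363.8 in the 15-month mice. In the 2-month mice it ran from 131.9 over 166.3 to 229.3. Thus 11 of 14 older mice lay above the highest young mouse, and all 14 lay above the mean of the young mice. Group means were 273 ± 50.1 (SD, n = 14) and 173 ± 32.6 (SD, n = 9), a difference of 0.61 on the log2 scale (SE 0.109). In whole tissue, more cells that carry a transcript and more of it per cell cannot be told apart. The older mouse lowest in Pglyrp1 was replicate 3 and the highest was replicate 7, while the young mice ran from replicate 6 to replicate 9.

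The second Pglyrp1 probe set was also higher in the older mice. It ran from 77.6 over 126.2 to 182.2 at 15 months and from 54.8 over 76.0 to 110.3 at 2 months, with 9 of 14 older mice above every young one. Its difference was 0.56 on the log2 scale. The highest mice were not the same on the 2 probe sets: replicate 14 led the older mice and replicate 8 the young ones on the second. Within an age the 2 probe sets correlated with r = 0.519 over 23 mice after each age was centred on its own mean. Some of the genes given further on had a higher r with the first probe set.

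**Figure D1:**
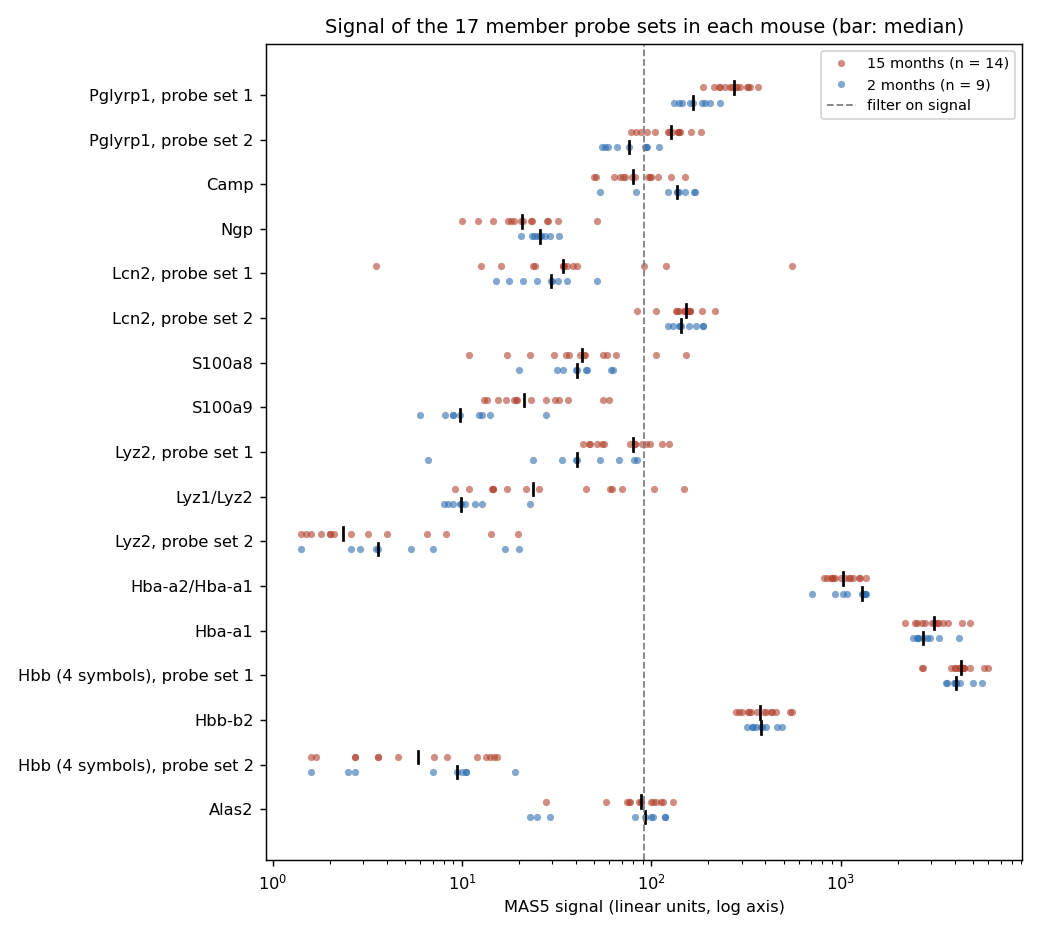
The plot shows the MAS5 signal (linear units on a log axis) of each of the 17 member probe sets in each mouse, red for 15 months (n = 14) and blue for 2 months (n = 9), with a black bar at each group's median and a dashed line at the filter, a signal of 91.7. Red and blue points separate for Pglyrp1, where 11 of 14 older mice lie above every young mouse, and overlap for the globin probe sets.

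Camp and Ngp were on average lower at 15 months, and neither difference passed the test. Camp, the cathelicidin precursor, ran from 50 over 80.15 to 151.2 at 15 months and from 53.2 over 137.0 to 169.8 at 2 months. Its groups overlapped over nearly their whole range, but only 2 of 14 older mice lay above the mean of the young mice on the log2 scale. The older mice were lower on average, at 87.0 ± 28.6 (SD, n = 14) against 129 ± 38.4 (SD, n = 9). The difference of -0.48 (SE 0.174) on the log2 scale did not pass limma's test over all 7453 probe sets, with an adjusted p of 0.247. Ngp, neutrophilic granule protein, was dim throughout, from 10.0 to 51.6 in the older mice with a median of 20.75, and from 20.4 to 32.3 in the young mice with a median of 25.8. The young mice lay inside the range of the older ones, and the difference of -0.15 had an adjusted p of 0.811 in limma without the filter.

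Lcn2 had a probe set on each side of the filter, and the 2 disagreed. The tested one ran from 84.0 over 152.1 to 217.3 at 15 months and from 122.0 over 142.7 to 187.4 at 2 months, a difference of -0.05 with an adjusted p of 0.886 in limma. The other, below the filter, ran from 3.5 over 34.3 to 550.7 in the older mice and from 15.1 over 29.4 to 51.8 in the young ones. Its maximum came from replicate 10 of the 15-month mice alone, and the next highest older mouse, replicate 13, stood at 119.0. The 2 Lcn2 probe sets correlated with r = 0.143 over the 23 age-centred mice, so they do not act as 1 measurement.

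The calprotectin genes also had single mice far above the rest. S100a8 ran from 10.9 over 43.0 to 152.6 at 15 months, with its peak in replicate 13 and the next value, 105.7, in replicate 10. At 2 months it ran from 20.0 over 40.5 to 63.0, inside the range of the older mice. S100a9 ran from 13 over 21.35 to 59.6 at 15 months, again highest in replicate 10, and from 6.0 over 9.7 to 27.6 at 2 months. All 14 older mice lay above the mean of the young mice for S100a9 and 5 lay above the highest young mouse. The difference of 0.59 was below the filter's signal and, with no filter, had an adjusted p of 0.211 in limma.

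Lyz2, which marks macrophages as well as neutrophils, had 3 dim probe sets. The first ran from 43.6 over 79.55 to 124.4 at 15 months and from 6.6 over 40.5 to 84.4 at 2 months, a difference of 0.59 with an adjusted p of 0.359 when no filter was used in limma. A probe set shared with Lyz1 ran from 9.2 over 23.65 to 148.3 in the older mice and from 8.0 over 9.9 to 22.8 in the young ones, with 7 of 14 older mice above every young mouse and an adjusted p of 0.254 without the filter. The third stayed between 1.4 and 20.0 in all 23 mice. Lyz1 and Lyz2 are near-identical copies, and the array cannot assign a shared probe set to either.

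The haemoglobin transcripts did not separate the ages. Hba-a1, an alpha-globin gene, ran from 2192.6 over 3116.95 to 4801.4 at 15 months and from 2424.5 over 2713.6 to 4226.7 at 2 months, a difference of 0.13 with an adjusted p of 0.681 in limma. A probe set annotated to both alpha-globin genes ran from 814.3 to 1364.7 and from 708.9 to 1354.1, a difference of -0.13 with an adjusted p of 0.637. The ages overlapped on both probe sets, and the 2 differences were of opposite sign.

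Beta-globin behaved alike. A probe set annotated to 4 beta-globin symbols ran from 2679.2 over 4312.15 to 6010.0 at 15 months and from 3594.7 over 4076.4 to 5614.6 at 2 months, so that the young mice lay inside the range of the older ones. Its difference was -0.01 with an adjusted p of 0.982 in limma. The probe set annotated only to Hbb-b2, a minor adult beta-globin gene, ran from 279.5 over 376.25 to 550.7 and from 320.7 over 379.4 to 488.7. Its difference was -0.02 with an adjusted p of 0.967 in limma. Which beta-globin gene gave its signal was not assessed, and Hbb-b2 here names the annotation. A further beta-globin probe set with the same 4 symbols stayed between 1.6 and 19 in all mice. The 2 globin families are made of close copies, and the signals of these copies cannot be told apart here.

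Alas2 was below the filter and uneven among the young mice. It ran from 27.9 over 88.3 to 129.3 at 15 months and from 22.8 over 92.0 to 117.8 at 2 months. Replicates 1, 3 and 6 of the young mice stood at 25, 22.8 and 29.1, while the other 6 lay between 82.0 and 117.8. Among the older mice only replicate 8, at 27.9, was as low. The difference of 0.28 had an adjusted p of 0.766 in limma without the filter.

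Over the whole table, limma called 28 of 7453 probe sets between the ages at a false discovery rate of 0.05, which is 0.376%, 25 of them higher at 15 months and 3 lower. Without the filter it called 27 of 12422, or 0.217%. Leaving aside Pglyrp1, whose difference chose the genes, no member probe set was called in either fit. At an unadjusted p under 0.05 the fit held 12.4% of all tested probe sets, and of the 6 tested members that were not Pglyrp1 only Camp was among them, with p = 0.0097 in limma. The median difference over all tested probe sets was -0.016 and 45.0% lay above 0. Without the filter, 9.59% of all probe sets had an unadjusted p under 0.05 in limma, and 4 of the 15 members other than Pglyrp1 did: S100a9, the first Lyz2 probe set and the one shared with Lyz1 were higher at 15 months, and Camp was lower. The means of the haemoglobin and of the neutrophil probe sets differed between the ages by -0.01 and 0.07 on the log2 scale.

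The lists of related genes were described by how many were called. None of the 5 tested neutrophil genes (Camp, Lcn2, Elane, Csf3r and Ncf1) was called, with 1 of 5 above 0 and a median difference of -0.05. None of the 7 tested red cell genes was called either, with 3 of 7 above 0 and a median of -0.015 on the log2 scale. Pglyrp1 aside, none of the other 7 tested recognition and antibacterial genes was called, and none of 9 genes of haem synthesis was. In the list of microglia and macrophages, the resident phagocytes, 5 of 14 were called and all 14 lay above 0, with a median of 0.24: Ctss, Ly86, Mpeg1, C1qb and C1qc. One gene each was called, and higher, on the lists of lymphocytes (Ighm, 4 tested), endothelium (Slc2a1, 10 tested) and astrocytes (S100b, 8 tested). The choroid plexus list had no call, with 4 of 4 genes above 0 and a median of 0.56 (log2), and the lists of platelets, meninges and hippocampal neurons had none either. With the mean of the microglia list as a covariate, the difference of Pglyrp1 was 0.62 (SE 0.208) on the first probe set and 0.35 on the second.

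The markers of neutrophils themselves were mostly dim. Of 28 genes on that list 22 had a probe set and 5 of these were above the filter. Mpo, Prtn3, Ctsg, Ltf, Mmp8, Mmp9 and Cxcr2, among the best known markers of the lineage, were below it. Their summed signal over all 22 genes ran from 1386.3 to 2582.9 at 15 months and from 1686.3 to 2619.1 at 2 months, so the groups overlapped over most of the range. The red cell list ran from 7604.9 to 10632.4 and from 8300.5 to 10594.8. With the mean of the haemoglobin members as a covariate, the age difference of Pglyrp1 was 0.617 (SE 0.109) on the first probe set and 0.56 on the second. With the mean of the neutrophil members, a covariate added after seeing the data, it was 0.584 (SE 0.097) and 0.529. Without a covariate it was 0.614 (SE 0.109) and 0.561. The haemoglobin and neutrophil means differed between the ages by only -0.013 and 0.066, so these fits could move the difference of Pglyrp1 little. The neutrophil mean joins a difference of 0.258 for S100a8, S100a9 and Lcn2 with -0.317 for Camp and Ngp. The part of blood cells in the difference of Pglyrp1 was not tested.

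Within an age, Pglyrp1 went with the neutrophil members more than with the haemoglobin members, by the size of r. Each mouse's log2 value was taken relative to the mean of its own age, and Pearson's r was computed over the 23 mice. The mean of the 6 neutrophil probe sets had r = 0.555 with Pglyrp1 (95% interval 0.175 to 0.792), and the mean of the 5 haemoglobin probe sets had r = 0.182 (-0.26 to 0.56). The intervals overlap, and the difference between the 2 values of r was not tested. Within the ages the neutrophil value was 0.614 at 15 months and 0.547 at 2 months, and the haemoglobin value was 0.301 and -0.045. The haemoglobin mean and the neutrophil mean themselves had r = 0.294.

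The gap between the 2 values depended on which probe sets formed the mean. With the probe sets above the filter only, 2 for the neutrophil genes and 4 for haemoglobin, r was 0.317 and 0.234. Over the tested genes of the neutrophil and red cell lists the order was reversed, with a median r of 0.054 and 0.086. A split of the neutrophil mean that was not planned gave r = 0.552 for S100a8, S100a9 and Lcn2. It gave 0.154 for Camp and Ngp. Leaving out replicate 10 of the 15-month mice, the one highest on the dim Lcn2 probe set and in S100a9, moved the neutrophil value to 0.64 and the haemoglobin value to 0.092. The haemoglobin value also moved to 0.063 without replicate 7 of the 15-month mice and to 0.339 without replicate 9 of the 2-month mice, the mice highest in Pglyrp1 in their groups. Leaving out replicate 13, whose array stood apart at its low end, gave 0.568 and 0.205. With the second Pglyrp1 probe set in place of the first, r was 0.463 with the neutrophil mean and -0.035 with the haemoglobin mean.

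**Figure D2:**
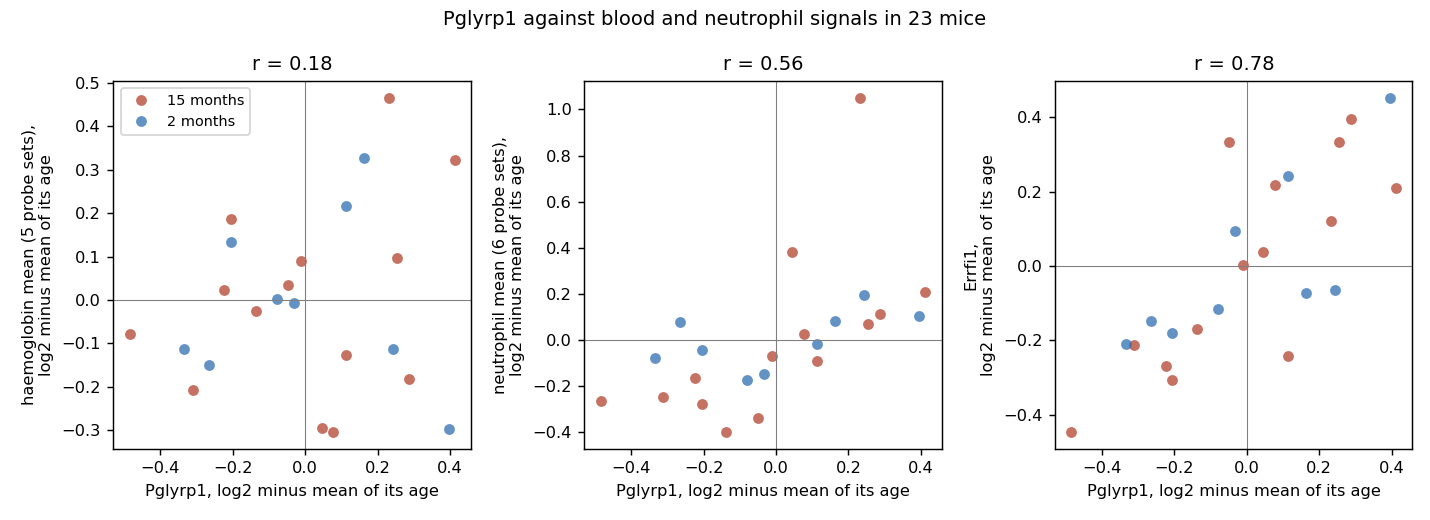
Each point is 1 of 23 mice (red 15 months, blue 2 months), with the log2 value of Pglyrp1 minus the mean of its age on the horizontal axis and, on the vertical axis, the mean of the 5 haemoglobin probe sets (left, r = 0.182), the mean of the 6 neutrophil probe sets (centre, r = 0.555) and Errfi1 (right, r = 0.776), each on the same scale. The haemoglobin points form no slope, the neutrophil points rise to the right with 1 older mouse far above the rest, and the Errfi1 points lie closest to a line.

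Among the member genes other than Pglyrp1, S100a8 had the highest Spearman correlation with it. Its Pearson r was 0.488 and its Spearman rho 0.652 over the 23 age-centred mice, with permutation p = 0.0206 and p = 0.00228. Within the ages Pearson's r was 0.529 at 15 months and 0.434 at 2 months. Without the 2 mice farthest from the median of Pglyrp1 it was 0.505 over all ages together, but 0.094 in the 2-month mice, where it rested on replicates 6 and 9. Without replicate 13 of the 15-month mice, highest in S100a8, r over the remaining mice was 0.567.

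S100a9 had r = 0.443 (rho 0.388, permutation p = 0.0397 and p = 0.0961), with 0.473 at 15 months and 0.392 at 2 months. Without the 2 mice farthest in Pglyrp1 its r was 0.54. The Lcn2 probe sets had r = 0.49 (rho 0.393, permutation p = 0.0198 and p = 0.0902) for the tested one and 0.371 (rho 0.423, permutation p = 0.0896 and p = 0.0662) for the dim one. The dim one had 0.492 in the older mice and -0.074 in the young mice. Without the 2 farthest mice these 2 probe sets gave 0.43 and 0.306.

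Camp and Ngp gave little. Camp had r = 0.054 and rho -0.092 over 23 mice (permutation p = 0.812 and p = 0.707), with -0.056 and 0.207 within the ages. Ngp had 0.191 (rho 0.252, permutation p = 0.41 and p = 0.291), made of 0.356 at 15 months and -0.528 at 2 months. The lysozyme probe sets ranged from -0.116 for the one shared with Lyz1 to 0.352 for the first of Lyz2, with 0.102 for the third.

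The haemoglobin probe sets had r with Pglyrp1 of 0.27 for Hba-a1, 0.206 for the probe set of both alpha-globin genes, 0.176 for that of 4 beta-globin symbols, 0.123 for Hbb-b2 and -0.065 for the dim beta-globin one. Their permutation p ran from 0.225 to 0.769. The probe set of both alpha-globin genes differed most between the ages, with 0.58 at 15 months and -0.239 at 2 months, and the test of that difference was not made. Without the 2 farthest mice the first 4 values fell to 0.146, 0.041, 0.103 and 0.053. Alas2 had r = 0.279 (rho 0.311, permutation p = 0.208 and p = 0.189).

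With 16 other member probe sets, each over 15-month, 2-month and age-centred mice, 48 relations were computed with each statistic. Of these, 7 had a permutation p under 0.05 for Pearson's r and 5 for Spearman's rho before adjustment, and 0 after Benjamini-Hochberg adjustment. The lowest adjusted permutation p was 0.274 for Pearson and 0.109 for Spearman, the latter for S100a8. Of the 15 probe sets of other genes 13 had a positive age-centred r. Over all 7452 probe sets compared with Pglyrp1 the median r was -0.024, 46.3% were above 0, and the values from the 5th to the 95th percentile ran from -0.38 to 0.359.

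**Figure D3:**
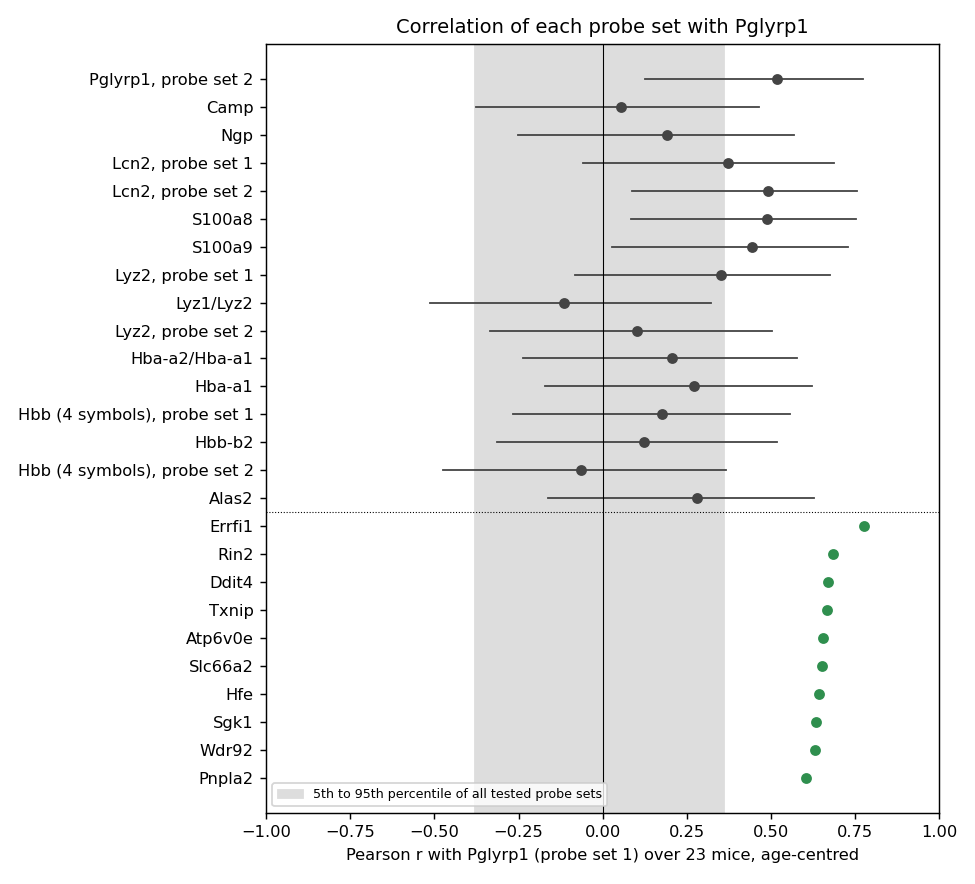
Points give Pearson's r with the first Pglyrp1 probe set over 23 age-centred mice for the 16 other member probe sets (black, with 95% intervals) and the 10 single-symbol probe sets of highest r (green), against a grey band from -0.38 to 0.359 that holds the 5th to 95th percentile of all tested probe sets. Lcn2, S100a8 and S100a9 lie above the band, the haemoglobin probe sets inside it, and all 10 green points far above it, where their choice puts them.

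The members also differed in how they went with one another. Of 120 pairs of member probe sets, leaving out the first of Pglyrp1, 3 passed a permutation test after Benjamini-Hochberg adjustment, and all were pairs of globin probe sets. Hba-a1 had r = 0.891 with the probe set of 4 beta-globin symbols and 0.823 with Hbb-b2, and the last 2 had 0.812. Each had a permutation p of 1e-05, the smallest that 100000 permutations can give, and an adjusted p of 0.0004. Alpha- and beta-globin genes lie on different chromosomes, so the pairs with Hba-a1 join separate loci. Alas2 had r of 0.305 to 0.379 with these 3 probe sets.

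The neutrophil members did not form such a group. S100a8 had r = 0.617 with the tested Lcn2 probe set (permutation p = 0.00472, adjusted p = 0.142), which fell to 0.257 without the 2 farthest mice. It had 0.561 with the dim Lcn2 probe set (adjusted permutation p = 0.403) and 0.438 with S100a9, its partner in calprotectin. Camp and Ngp had r = -0.039 with each other. Between the neutrophil and the haemoglobin probe sets, 19 of 30 pairs had a positive r, with a median of 0.143 and a range from -0.254 to 0.454. The highest was that of Camp with Hbb-b2 and the lowest that of the tested Lcn2 probe set with the one of 4 beta-globin symbols. S100a8 had r of -0.075 with Hba-a1, and S100a9 had 0.408 with the probe set of both alpha-globin genes. None of the 30 passed after adjustment, with a lowest adjusted permutation p of 0.403.

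**Figure D4:**
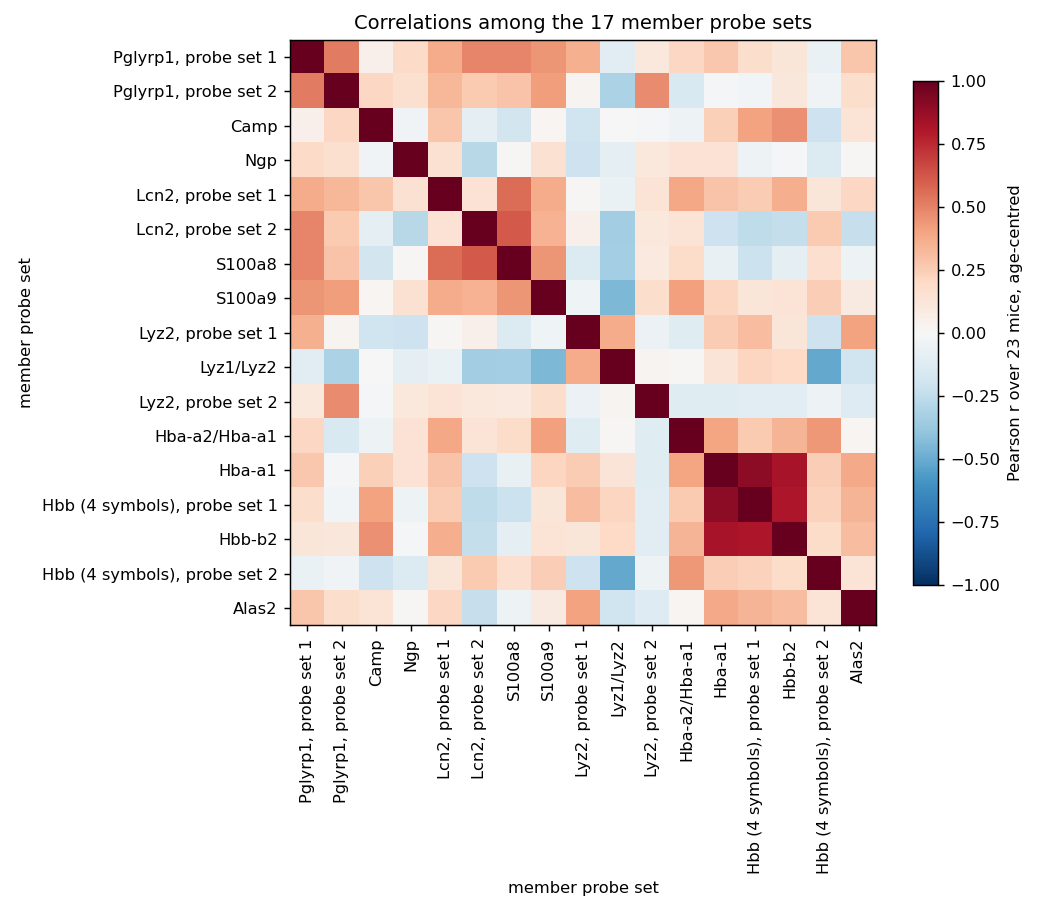
The heat map gives Pearson's r over 23 age-centred mice for each pair of the 17 member probe sets, on a scale from -1 (blue) to 1 (red), with genes ordered from Pglyrp1 over the neutrophil, lysozyme and haemoglobin genes to Alas2. A dark block of 3 globin probe sets (r of 0.812 to 0.891) stands out, and S100a8 has paler red cells with both Lcn2 probe sets (0.561 and 0.617) and with S100a9 (0.438).

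A fit of all tested probe sets on Pglyrp1, with age in the model, placed these values among the rest of the array. limma called 0 of 7452 probe sets at a false discovery rate of 0.05 (0.0%), and 0 of 12421 without the filter (0.0%), while 410 (5.5%) had an unadjusted p under 0.05, 169 of them positive and 241 negative. Of the tested members, the second Pglyrp1 probe set had p = 0.0182 and Lcn2 had p = 0.0291 in limma, both with an adjusted p of 0.87. The 4 haemoglobin probe sets had p between 0.185 and 0.567, and Camp had 0.806. By the size of r, 99.0% of the tested probe sets lay below the tested Lcn2 probe set, 88.9% below Hba-a1 and 72.2% below Hbb-b2. Of all non-control probe sets 98.8% lay below S100a8, 97.9% below S100a9 and 95.1% below the dim Lcn2 probe set.

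The 10 genes most like Pglyrp1 from mouse to mouse included none on the neutrophil or red cell lists. Only 5 neutrophil and 7 red cell genes were among the 7452 tested probe sets, so their absence from a top 10 says little. S100a8, S100a9, Ngp and Alas2 were below the filter and were not ranked. Errfi1, an inhibitor of EGF receptor signalling, had the highest r of all, 0.776 (0.79 at 15 months, 0.758 at 2 months) and an adjusted p of 0.0754 in limma, the lowest of the fit. That adjusted p fell below 0.05 with a pseudocount of 64, with quantile normalisation, with a choroid plexus covariate and without any of 3 single mice. It did not in any other setting. The lowest adjusted p of any probe set in limma rose to 0.424 with the neutrophil covariate and 0.221 with the other Pglyrp1 probe set. It was 0.383 without replicate 3 of the 15-month mice and 0.261 without replicate 9 of the 2-month mice. Errfi1 was followed by Rin2 (0.685), a regulator of the small GTPase Rab5, Ddit4 (0.67), an inhibitor of mTOR signalling that cells raise under stress, and Txnip (0.666), which binds thioredoxin and limits glucose uptake. Atp6v0e (0.654), a subunit of the vacuolar proton pump, Slc66a2 (0.651), Hfe (0.643), a regulator of iron uptake, and Sgk1 (0.633), a kinase induced by serum and glucocorticoids, came next. Wdr92 (0.632) and Pnpla2 (0.604), the main triglyceride lipase, completed the 10. These were picked as the highest among tested probe sets with 1 symbol, so their size is a description.

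Errfi1 itself ran from 719.9 over a median of 1000.1 to 1302.9 at 15 months and from 694.5 over 765.2 to 1107.5 at 2 months, so the ages overlapped. Its highest young mouse was replicate 9, which was also highest in Pglyrp1, and its lowest older mouse was replicate 3, lowest in Pglyrp1. Sgk1 ran from 1307.1 over 2013.2 to 3276.8 at 15 months and from 778.8 over 1045.5 to 1280.8 at 2 months, without overlap. With limma Sgk1 differed between the ages by 0.97 (SE 0.175, adjusted p = 0.00613) and Rin2 by 0.69 (SE 0.131, adjusted p = 0.00889). The other 8 of the 10 were not called between the ages, with adjusted p of 0.117 for Txnip, 0.129 for Ddit4, 0.162 for Wdr92 and 0.244 for Errfi1. Wdr92 owed much of its r to the older mice, with 0.793 against 0.092 in the young ones, and its signal in replicate 7, highest in Pglyrp1, was 8561.1 against 5577.0 in the next.

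The same 10 probe sets were set against the blood members. With the haemoglobin mean, 6 of the 10 had a negative r, among them Errfi1 at -0.008, Sgk1 at -0.018 and Ddit4 at -0.114, and Atp6v0e was the highest at 0.522. With the neutrophil mean all 10 were positive, from 0.267 for Rin2 to 0.61 for Slc66a2. The 10 were picked for high r with Pglyrp1, which itself had r = 0.555 with the neutrophil mean and 0.182 with the haemoglobin mean. Their values with both means therefore follow in part from that choice and are a description. S100a8 had r = 0.784 with Txnip, 0.661 with Pnpla2 and 0.624 with Sgk1. Against the second Pglyrp1 probe set the 10 had lower r, from 0.173 for Hfe to 0.597 for Sgk1, with 0.446 for Errfi1. With the neutrophil mean added to the model, r of Errfi1 with Pglyrp1 was 0.745.

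At the other end, among probe sets with 1 symbol, stood Wars and the histone chaperone Set (both r = -0.692), Cse1l (-0.647), Lage3 (-0.641) and Mars1 (-0.639). Wars and Mars1 encode enzymes that load tryptophan and methionine onto their transfer RNAs, and Cse1l returns importin alpha to the cytoplasm. Wars ran from 140.1 to 264.1 at 15 months and from 139.5 to 244.9 at 2 months. None of these 5 was called against Pglyrp1 or between the ages in limma.

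Among the lists of cell type markers, the tested neutrophil genes had a positive r with Pglyrp1 in 3 of 5 (median 0.054) and the red cell genes in 4 of 7 (median 0.086), against 46.3% and -0.024 over all tested probe sets. The highest of each were the tested Lcn2 probe set at 0.49 and Rhag, a red cell membrane protein, at 0.415. The meninges and fibroblast list had 9 of 9 above 0 with a median of 0.258 and Col1a1 the highest at 0.413, and the choroid plexus list had 4 of 4 with a median of 0.292 and Ttr the highest at 0.361. Both tissues border on the hippocampus. Ttr, the choroid plexus transcript for transthyretin, ran from 149.9 to 9921.9 at 15 months and from 68.9 to 9134.2 at 2 months, so single mice of both ages stood far above the rest. With the choroid plexus mean in the model Pglyrp1 had r = 0.561 with the neutrophil mean and 0.074 with the haemoglobin mean.

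The microglia list had 9 of 14 above 0 and a median of 0.047, with Mpeg1, a perforin-like gene of macrophages, the highest at 0.561. Endothelial genes had 7 of 10 above 0 (median 0.132), led by the glucose transporter Slc2a1 at 0.454, and astrocyte genes 5 of 8 (median 0.103), led by Serpina3n at 0.341. Lymphocyte genes had 3 of 4 above 0 (median 0.197, Ms4a1 the highest at 0.287), and Gp1bb, the only platelet gene tested, had 0.112. Hippocampal neuron genes had 2 of 7 above 0 with a median of -0.176, although Wfs1 stood at 0.452. Of 7 other recognition and antibacterial genes 5 were above 0 (median 0.119), and of 9 genes of haem synthesis and breakdown 3 were (median -0.091), led by the haem oxygenase Hmox1 at 0.244. No gene on any of these lists was called against Pglyrp1 in limma.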

How the data were processed

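Per the submitters' processing notes, the authors made the signals with MAS5; the version is not given in the sources used here. Deposited intensities are linear, with 1 value per probe set and array. After trimming 2% at each end, every array had a mean of 500.3 to 1 decimal, so no further normalisation was applied. Tests did not use the 66 control probe sets. Of the other 12422, the platform annotation gave 1 symbol to 10833, several to 396 and none to 1193.

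The members and lists were chosen with earlier results of these data known. Ages came from the labels. Values were tested as log2(signal + 16) using limma 3.58.1 (R 4.3.3; lmFit, eBayes, trend and robust options), with two-sided p adjusted by Benjamini-Hochberg over all tested probe sets at 0.05. Likeness was the slope on the first Pglyrp1 probe set with age in the model. Correlations of age-centred values were permuted within age, 100000 times, and those within the 9 young mice over all pairings, with scipy 1.17.1. Intervals are at 95%. The number of arrays limits the precision. The fits were tested on simulated data.

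Named genes are all members, the 10 probe sets with 1 symbol of highest and the 5 of lowest age-centred r, and the highest of each list. Alternatives were other pseudocounts, filters and normalisation, covariates, ranks, each age alone, the other Pglyrp1 probe set and each mouse left out.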

Additional observations from a re-analysis of the deposited data

Results flagged for a closer look

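In the group of 9 young mice, 3 of 32 probe sets examined had a single mouse far from the others. The criterion was the gap to the next value relative to the whole range of the linear signals. Chance meets it in about 1 in 20 groups of normally distributed values. It was not applied to the log2 values, on which a high value stands out less. S100a9 had a signal of 27.6 in replicate 1, while the other 8 mice lay between 6.0 and 14.1. The probe set shared by Lyz1 and Lyz2 stood at 22.8 in replicate 2, against 8.0 to 12.8 in the others. Hba-a1 also peaked in replicate 2, at 4226.7 against 2424.5 to 3299.0. Groups of 14 were not examined in this way.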

How the results depend on the processing

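The 28 probe sets called between the ages became 62 with each array's 25th percentile as a covariate, 1 with the microglia mean and 20 to 39 with 1 mouse left out. The difference of Pglyrp1 lay between 0.51 and 0.66 on the first probe set and between 0.35 (microglia mean) and 0.65 on the second. The 0 probe sets called against Pglyrp1 became 2 with a pseudocount of 64 (Errfi1 and a probe set annotated to Ctla2a and Ctla2b), 1 with quantile normalisation (Errfi1), 1 with the choroid plexus mean (Errfi1), 1 in the 15-month mice alone (the Ctla2 probe set) and 0 to 2 with 1 mouse left out (Errfi1 without replicate 1 of either age, both probe sets without replicate 5 of the 15-month mice, and the Ctla2 one without replicate 6 of the 2-month mice). The 60th-percentile filter dropped Pglyrp1 and gave no age difference for it, and a haemoglobin covariate gives no r with the haemoglobin mean. With 1 mouse left out, r of Pglyrp1 was 0.532 to 0.64 with the neutrophil mean and 0.063 to 0.339 with the haemoglobin mean; under the other alternatives it was 0.317 to 0.575 and -0.035 to 0.234.

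Signs turned where values were near 0, and the cause was not tested. Age differences became 0.006 (haemoglobin covariate) and 0.067 (microglia) for the probe set of 4 beta-globin symbols, 0.009 (25th percentile) and 0.013 (microglia) for Lcn2, and 0.041 (microglia) for Hbb-b2. With 1 mouse left out they ran from -0.049 to 0.043, from -0.089 to 0.005 and from -0.056 to 0.027. The r with Pglyrp1 became -0.049 (haemoglobin), -0.037 (choroid plexus) and -0.022 (neutrophil covariate, added after seeing the data) for Hbb-b2, and -0.145 (neutrophil), -0.056 (15-month mice) and -0.092 (ranks) for Camp. For the probe set of both alpha-globin genes it became -0.003 (neutrophil), -0.15 (other Pglyrp1 probe set) and -0.239 (2-month mice). Against the other Pglyrp1 probe set it was -0.023 for Hba-a1, -0.031 for the 4 beta-globin symbols, -0.025 for Gp1bb, -0.049 for Ttr and -0.148 for Hmox1. In the 2-month mice alone it was -0.759 for Gp1bb and -0.11 for Hmox1. With 1 mouse left out it ran from -0.05 to 0.218 for Hbb-b2, from -0.064 to 0.138 for Camp and from -0.01 to 0.208 for Gp1bb. No paired analysis was possible because the 2 ages share no mouse and no number in their titles.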
